A study of Homo sapiens with 8 samples.

Results

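Chemokines are small secreted proteins that steer migrating cells, and 8 of their genes were followed here among the 64253 genes of the count tables. The set comprised CXCL1, CXCL2, CXCL3, CXCL5, CXCL6, CXCL8 and CXCL16 of the CXC class, together with CCL20, which belongs to the CC class. The set was chosen by a measured value, the higher level of CXCL5 in HCT-8/FU than in HCT-8 in these same libraries. For that reason every difference of a chemokine between HCT-8/FU and HCT-8 is given as a description with no test. Each symbol matched 1 Ensembl identifier, and 6 of the 8 genes were among the 20305 that passed the filter on low counts.

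Messenger RNA was sequenced from 4 groups with 2 libraries in each. HCT-8 cells derive from a human intestinal adenocarcinoma and respond to 5-fluorouracil (5-FU), an inhibitor of thymidylate synthesis. The paired line HCT-8/FU resists the drug. Both were grown in unconditioned medium. The other groups, CM of HCT-8 and CM of HCT-8/FU, were sensitive HCT-8 cells cultured in conditioned medium (CM) that HCT-8 or HCT-8/FU cells, respectively, had conditioned for 48 hours. Resistance was represented by 1 line from a commercial supplier. No source used here gives how it was selected, how long the recipient cells stayed in CM or whether replicates came from separate cultures, so the spread between replicates, and any p-value based on it, may be technical.

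The libraries held between 5804124 and 34881349 counts on genes. In HCT-8 replicate 1, HCT-8/FU replicate 2 and CM of HCT-8 replicate 1, between 20% and 29.6% of the records were not aligned, against 3.58% to 4.43% in the other 5 libraries. These 3 libraries were also the 3 shallowest. Levels are given in counts per 1000000 (CPM) after TMM normalization. All 8 markers of colon epithelium passed the filter, with a summed level of 9317 to 11609 CPM per library. The 6 leukocyte markers summed to 0.527 to 1.84 CPM, with PTPRC and CD3E at 0 counts in every library. The 6 fibroblast markers summed to 12.5 to 22.3 CPM, with COL1A2 at 0, and the 4 endothelial markers to 1.27 to 2.45 CPM.

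CXCL1, CXCL2, CXCL3, CXCL5, CXCL6 and CXCL8 carry the glutamate-leucine-arginine motif that marks ligands of the receptors CXCR2 and, for CXCL6 and CXCL8, also CXCR1. They draw neutrophils and promote the growth of blood vessels, and epithelial cells make them during inflammation. Their genes lie in a cluster on chromosome 4, are induced through NF-kappaB, and give short-lived transcripts with AU-rich elements. CXCL16 is made as a membrane protein, is released by ADAM10 and ADAM17, and binds CXCR6. CCL20 binds CCR6 and attracts lymphocytes and dendritic cells to mucosal surfaces.

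The promoters of CXCL5 and of CXCL6, its closest match in sequence, are shown because these near-identical promoters belong to genes with very different levels in these cells. Those of CXCL3 and CXCL8 are shown as less similar promoters from the same chromosome. The RefSeq table (GRCh38.p14) held promoters for 7 of the 8 genes, all but CXCL16, and the 150 bases just before the RefSeq start are printed for 4 of them. Capitals mark matches to the NF-kappaB core GGAATTTCC, to the AP-1 motif TGANTCA or to TATAAA on either strand. The CXCL5 stretch is chr4:73998678-73998827 (- strand), that of CXCL6 is chr4:73836528-73836677 (+ strand), that of CXCL3 is chr4:74038690-74038839 (- strand) and that of CXCL8 is chr4:73740419-73740568 (+ strand).
CXCL5: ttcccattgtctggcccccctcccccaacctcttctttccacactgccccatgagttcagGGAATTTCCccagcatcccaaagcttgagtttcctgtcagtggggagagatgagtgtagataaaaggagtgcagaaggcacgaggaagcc
CXCL6: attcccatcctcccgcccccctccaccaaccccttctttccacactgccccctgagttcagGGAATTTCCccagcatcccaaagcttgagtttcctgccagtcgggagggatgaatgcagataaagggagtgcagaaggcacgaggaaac
CXCL3: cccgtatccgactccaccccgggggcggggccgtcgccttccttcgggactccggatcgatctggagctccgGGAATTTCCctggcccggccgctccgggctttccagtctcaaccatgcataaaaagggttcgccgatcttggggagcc
CXCL8: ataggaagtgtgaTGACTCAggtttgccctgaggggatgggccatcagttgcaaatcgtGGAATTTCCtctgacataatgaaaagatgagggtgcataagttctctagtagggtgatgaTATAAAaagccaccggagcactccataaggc

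The stretches of CXCL5 and CXCL6 were identical in 135 of 151 aligned columns (89.4%), with the GGAATTTCC match 90 to 82 bases before the start in CXCL5 and 89 to 81 bases before it in CXCL6. CXCL5 and CXCL3 matched in 53.3% of columns, and CXCL5 and CXCL8 in 49.7%. In turn, CXCL3 was 88.1% identical to CXCL1 and 86.1% identical to CXCL2. Within the 250 bases before the start, GGAATTTCC was found in 6 of the 7 promoters, all of them on chromosome 4. Over all 35116 promoters it was found in 145 (0.413%). The search was for this exact string of letters only. The promoters of CXCL1, CXCL2 and CXCL3 are alike in sequence, as are those of CXCL5 and CXCL6. Their matches are therefore not separate, and no enrichment is read from these shares. TGANTCA was found in CXCL8 alone among the 7, and in 6.57% of all promoters. TATAAA was found in CXCL8 and CCL20, and in 10.7% of all promoters. These matches are letters in a window and were not measured as binding.

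CXCL5 attracts neutrophils through CXCR2 and lies at chromosome 4, 73995642 to 73998677, on the minus strand (GRCh38, GENCODE 44). Its 4 exon blocks span 2436 bases with a GC content of 37.1%. CXCL5 was at 1.97 and 1.36 CPM in the 2 HCT-8 libraries. In HCT-8/FU it was at 9.67 and 30.9 CPM, a difference of more than 3-fold between replicates. In CM of HCT-8 the level was 7.71 and 4.78 CPM. In CM of HCT-8/FU it was 6 and 6.39 CPM. Thus HCT-8/FU lay highest and HCT-8 lowest, neither overlapped with any other group, and the 2 CM groups overlapped each other between them.

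**Figure D1:**
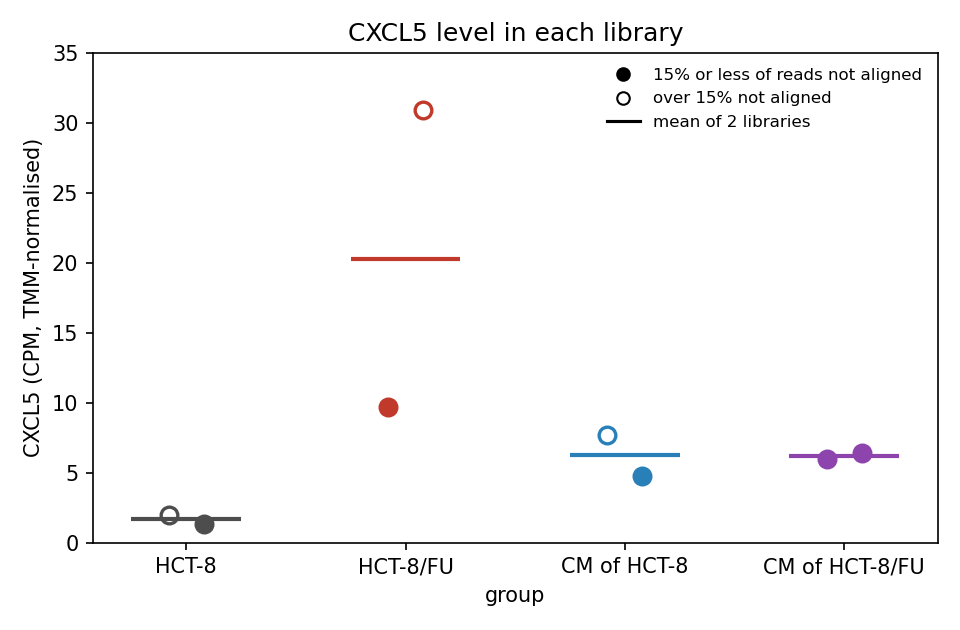
CXCL5 level (CPM, TMM-normalised, vertical axis from 0) in each of the 8 libraries by group, with the group mean as a line and open circles for the 3 libraries in which over 15% of the records were not aligned. HCT-8/FU reached 9.67 and 30.9 CPM, HCT-8 1.97 and 1.36 CPM, and the 4 CM libraries lay between 4.78 and 7.71 CPM.

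Between HCT-8/FU (20.3 ± 15 CPM, SD, n = 2) and HCT-8 (1.67 ± 0.435 CPM) the fitted log2 fold change of CXCL5 was 3.61 (SE 0.48, 95% interval 2.58 to 4.64), or 12.2-fold. The 476 counts in HCT-8/FU stood against 61 counts in HCT-8. HCT-8/FU replicate 2, the shallowest library, carried the highest level, and without it the log2 fold change was 2.65, whereas without HCT-8/FU replicate 1 it was 4.33. In each of the 3 groups that held a library with over 15% of records not aligned, that library had the higher CXCL5 of the pair. Between the libraries with over 15% not aligned, HCT-8/FU exceeded HCT-8 by 15.7-fold, and between those with less it did so by 7.11-fold. With the 3 libraries left out, a choice made after seeing the data, the log2 fold change was 2.82 (SE 0.24).

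Genes of similar GC content also tended to be higher in HCT-8/FU, though by less. The 900 tested genes within 1 percentage point of the GC content of CXCL5 had a median log2 fold change of 0.72 in HCT-8/FU against HCT-8, compared with 0.00817 over all genes tested. After correction for GC content and length, CXCL5 had a log2 fold change of 3.05 (SE 0.52). The part of library composition in the remainder was not tested. Of the exonic bases of CXCL5, 17.3% overlap an unnamed gene on the opposite strand, ENSG00000287037, which has no row in the count tables. No source used here gives the strand setting of the counting, so reads from the 2 genes over those bases cannot be told apart.

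Conditioned medium was set against unconditioned HCT-8 with the same 2 HCT-8 libraries that entered the choice of the genes, so these values are also descriptions. CM of HCT-8 held 6.25 ± 2.07 CPM of CXCL5 (SD, n = 2), a log2 fold change of 1.96 over HCT-8 (SE 0.51), or 3.89-fold. CM of HCT-8/FU held 6.19 ± 0.276 CPM, a log2 fold change of 2.02 (SE 0.48), or 4.06-fold. The genes of like GC content had medians of -0.29 and 0.36 in these comparisons. Both media therefore went with CXCL5 levels above those of unconditioned HCT-8 cells. The highest CM library, at 7.71 CPM, lay below the lower HCT-8/FU library, at 9.67 CPM. No fold change between HCT-8/FU and a CM group was fitted.

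The CM comparison, CM of HCT-8/FU set against that of HCT-8, asks whether medium from resistant cells acts differently from medium of sensitive cells, and it shares no library with the choice of the genes. A gene was called when its adjusted p, from the quasi-likelihood test of edgeR adjusted by Benjamini-Hochberg over the 20305 genes tested, was at most 0.05 and its log2 fold change was at least 0.58 in size. None of the 6 tested chemokines was called, where 9.25% of all tested genes were. At an unadjusted p under 0.05, 2 of the 6 passed (CXCL3 and CXCL16), as did 31.8% of all tested genes, and DESeq2 also called 0. CXCL5 differed by a log2 fold change of 0.06 (SE 0.41, 95% interval -0.80 to 0.93), with an adjusted p of 0.944. The interval allows a fold between 0.572 and 1.9. The fit shares its estimate of spread over all 4 groups, and with the 2 CM groups alone the log2 fold change was 0.15 with a smaller SE of 0.24. The direction turned with the processing, to -0.46 after correction for GC content and length and to -0.31 without CM of HCT-8 replicate 2. In this comparison only CM of HCT-8 replicate 1 had over 15% of its records not aligned. With a term for such libraries the log2 fold change was 0.57 (SE 0.24, edgeR adjusted p 0.108), and with them left out it was 0.37. Across the 19 alternatives the value stayed between -0.46 and 0.57. In those that kept both libraries of every group compared, the adjusted p lay between 0.108 (edgeR) and 0.986 (DESeq2).

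**Figure D2:**
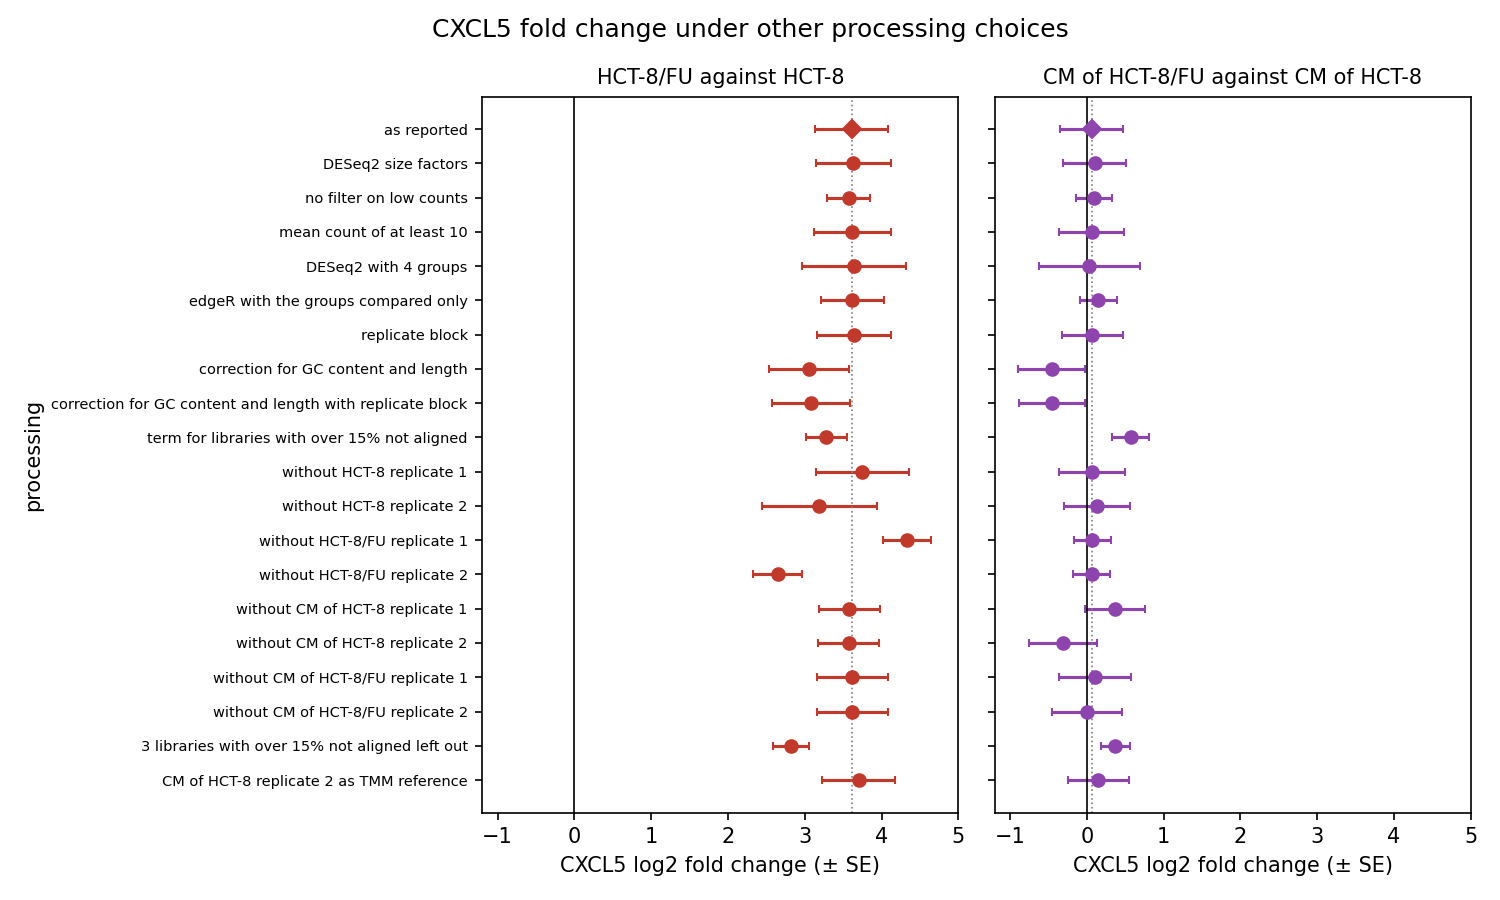
CXCL5 log2 fold change (horizontal axis, ± SE) as reported (diamond) and under each other processing choice (circles), for HCT-8/FU against HCT-8 on the left and the CM comparison on the right. The values on the left lie between 2.65 and 4.33 and those on the right between -0.46 and 0.57, on both sides of 0.

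CXCL6, which acts through both CXCR1 and CXCR2, had 0 counts in all 8 libraries. A count of 0 in 172931067 allows up to 0.0172 CPM, which covers counting error only. The gene whose promoter is nearest in sequence to that of CXCL5 was therefore not detected in any group, including HCT-8/FU where CXCL5 was at 9.67 and 30.9 CPM. PF4, PF4V1 and PPBP, platelet chemokines of the same cluster, were likewise at 0 counts in every library. PF4 and PPBP are the nearest neighbours of CXCL5 on one side.

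CXCL3, a neutrophil attractant, starts 40.1 kb from CXCL5, and its 2219 exonic bases share 3.3% of their 100-base words with CXCL2. CXCL3 stood at 2.24 and 2.37 CPM in HCT-8 and at 2.86 and 3.01 CPM in HCT-8/FU. With CM of HCT-8 it was at 3.22 and 3.24 CPM, and in CM of HCT-8/FU at 2.08 and 1.85 CPM. The libraries of the 4 groups did not overlap, in the order CM of HCT-8, HCT-8/FU, HCT-8 and CM of HCT-8/FU. CXCL3 had only 17 counts in HCT-8 replicate 1, 18 in HCT-8/FU replicate 2 and 28 in CM of HCT-8 replicate 1. Small gaps, such as 3.01 against 3.22 CPM or 2.08 against 2.24 CPM, are therefore not read as differences. Relative to HCT-8, HCT-8/FU had a log2 fold change of 0.33 (SE 0.31). CM of HCT-8/FU lay below CM of HCT-8 by a log2 fold change of -0.72 (SE 0.29, 95% interval -1.33 to -0.10), a fold of 0.609. With an unadjusted p of 0.0251 and an adjusted p of 0.0969 by edgeR, this difference did not pass the test. In the alternatives that kept both libraries of every group compared, the adjusted p ran from 0.0909 to 0.261, both by edgeR. The value was between -0.80 and -0.62 in each of the 19 alternatives.

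CXCL2, which also signals through CXCR2, varied little, at 1.95 to 2.51 CPM in every library. The levels were 1.97 and 1.95 CPM in HCT-8, 2.09 and 2.51 CPM in HCT-8/FU, 2.19 and 2.18 CPM in CM of HCT-8, and 2.05 and 1.98 CPM in CM of HCT-8/FU. In log2 terms the fold change was 0.19 (SE 0.34) in HCT-8/FU against HCT-8, and 0.09 or 0.35 when HCT-8/FU replicate 2 or replicate 1 was left out. It was -0.12 (SE 0.32, 95% interval -0.79 to 0.56) in the CM comparison, with an adjusted p of 0.846 in edgeR. CXCL2 shares 5.3% of its 100-base words with CXCL3, so a small part of its reads could belong to either gene.

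CXCL1 is the closest relative of CXCL2 and CXCL3 and had 109 counts over all libraries. Counts of 0 and 24 were found in the HCT-8 libraries, and counts of 14 and 3 in those of HCT-8/FU. The libraries from CM of HCT-8 had 4 and 24 counts, and those from CM of HCT-8/FU had 25 and 15. Levels ran from 0 to 0.904 CPM and the groups overlapped. The log2 fold changes were -0.04 (SE 0.80) in HCT-8/FU against HCT-8 and -0.19 (SE 0.72, 95% interval -1.73 to 1.35) in the CM comparison, with an edgeR adjusted p of 0.892 in the latter. At this depth a change of several fold could not be seen in CXCL1, and its sign in the CM comparison turned to 0.48 without CM of HCT-8 replicate 2.

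CXCL8, or interleukin-8, binds CXCR1 and CXCR2 and lies at the far end of the chemokine cluster from CXCL2. CXCL8 was at 3.03 and 2.25 CPM in HCT-8 and at 2.06 and 1.17 CPM in HCT-8/FU. With CM of HCT-8 it was at 1.15 and 0.678 CPM, and in CM of HCT-8/FU at 1.38 and 0.876 CPM. Both HCT-8 libraries lay above the other 6, HCT-8/FU overlapped with CM of HCT-8/FU, and the latter overlapped with CM of HCT-8. In HCT-8/FU against HCT-8 the log2 fold change was -0.53 (SE 0.44), just inside the threshold of 0.58, and -1.37 (SE 0.43) after correction for GC content and length. Leaving out HCT-8/FU replicate 2 gave -0.31, leaving out HCT-8/FU replicate 1 gave -1.13, and the value was -0.13 with the 3 libraries of over 15% not aligned left out. The log2 fold change was -1.59 (SE 0.48) in CM of HCT-8 and -1.17 (SE 0.43) in CM of HCT-8/FU, both against HCT-8. Between the CM groups the log2 fold change was 0.42 (SE 0.48, 95% interval -0.61 to 1.44) with an adjusted p of 0.606 by edgeR, and it turned to -0.35 after correction for GC content and length.

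**Figure D3:**
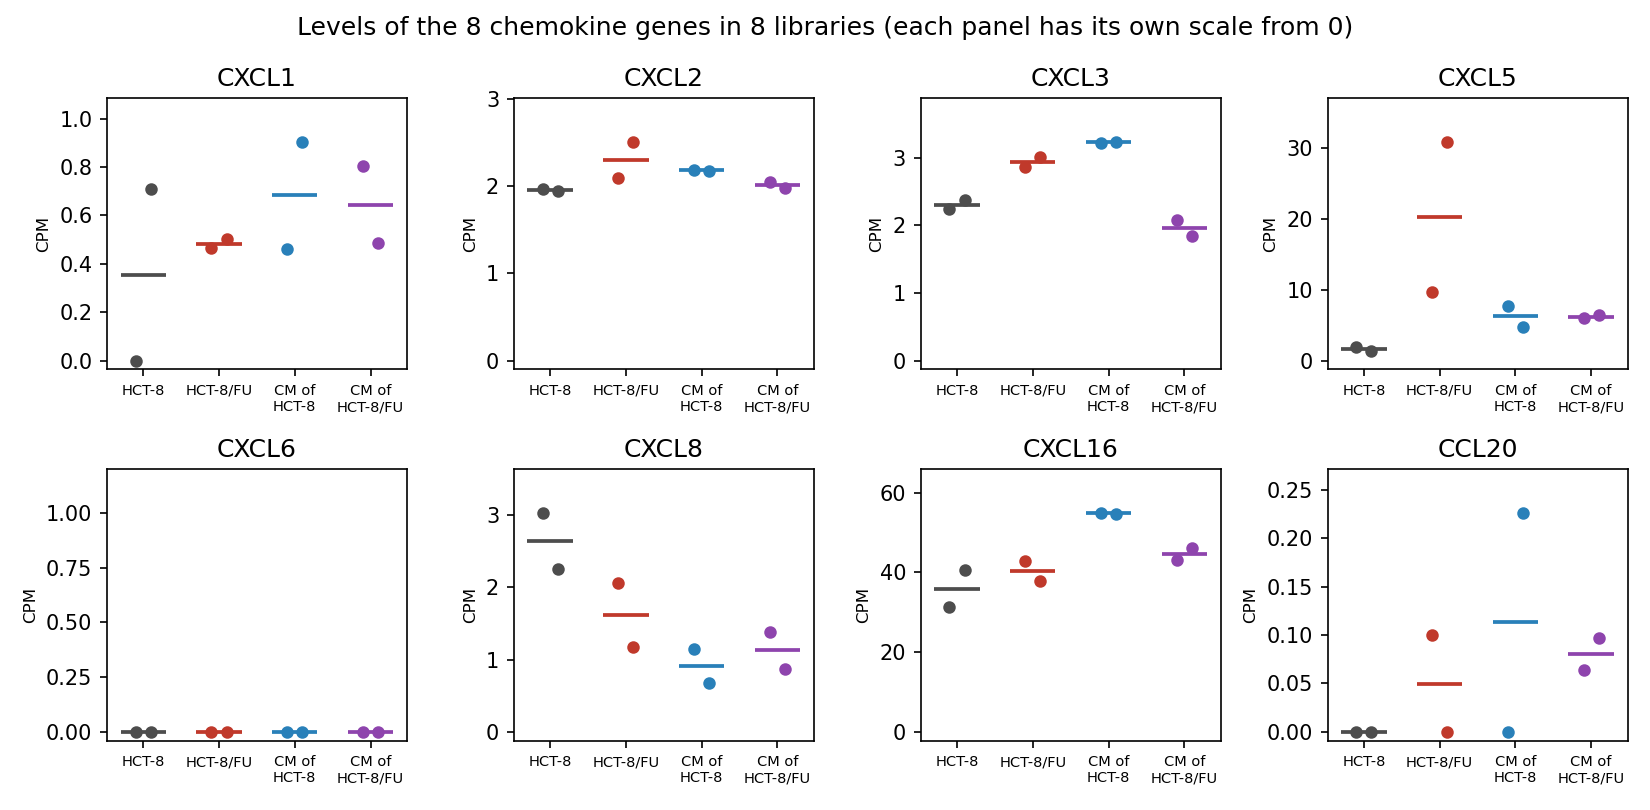
Level of each chemokine gene (CPM, vertical axis, own scale per panel) in the 8 libraries by group, with the mean of 2 libraries as a line. CXCL5 is highest in HCT-8/FU and CXCL8 in HCT-8, CXCL16 lies between 31.3 and 54.9 CPM, and CXCL6 is at 0 throughout.

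CXCL16, the membrane-bound ligand of CXCR6, lies on chromosome 17 (4733533 to 4739928, minus strand) and was the most abundant of the 8 genes per length. It reached 12.9 CPM per kb of exon in HCT-8, compared with 1.4 for CXCL2, 1.04 for CXCL3, 1.02 for CXCL8, 0.684 for CXCL5 and 0.26 for CXCL1. In HCT-8/FU, CXCL5 came second with 8.33 CPM per kb beside 14.5 for CXCL16. Per library, CXCL16 was at 31.3 and 40.6 CPM in HCT-8 and at 42.9 and 37.9 CPM in HCT-8/FU, which overlapped. It was at 54.9 and 54.7 CPM in CM of HCT-8 and at 43 and 46.2 CPM in CM of HCT-8/FU, and no library of the latter reached the former.

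The log2 fold change of CXCL16 was 0.15 (SE 0.12) in HCT-8/FU against HCT-8. It was 0.37 (SE 0.11) with the GC and length correction, and ranged from 0.00 without HCT-8 replicate 1 to 0.36 without HCT-8 replicate 2, with 0.03 without HCT-8/FU replicate 1. Against HCT-8 it was 0.57 (SE 0.12) in CM of HCT-8 and 0.28 (SE 0.11) in CM of HCT-8/FU. In the CM comparison it was -0.30 (SE 0.11, 95% interval -0.53 to -0.06), or 0.815-fold, with an unadjusted p of 0.0181 and an adjusted p of 0.0766 by edgeR, so it was not called. In the alternatives that kept both libraries of every group compared, the edgeR adjusted p was lowest, at 0.0143, with the term for libraries with over 15% not aligned. It was highest, at 0.558, with the GC and length correction and replicate block. The size of the change stayed under the threshold of 0.58 in all 19 alternatives. Of the exonic bases of CXCL16, 6.2% overlap MED11 or ZMYND15 on the opposite strand.

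CCL20 had 14 counts in all. Both HCT-8 libraries had 0 counts, HCT-8/FU had 3 and 0, CM of HCT-8 had 0 and 6, and CM of HCT-8/FU had 2 and 3. The gene did not pass the filter, and the depth does not show whether its level differed between groups.

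In HCT-8/FU against HCT-8, 1 chemokine lay past the fold threshold, CXCL5, and CXCL8 lay closest to it on the inside. Over all tested genes 22.5% had a log2 fold change of at least 0.58 and 14.2% of at most -0.58, and nothing is read from the chemokine count beside these since the contrast chose the genes. The median log2 fold change of the 6 tested chemokines was 0.17 in HCT-8/FU against HCT-8, and -0.15 in the CM comparison, where the median of all genes was -0.0592.

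**Figure D4:**
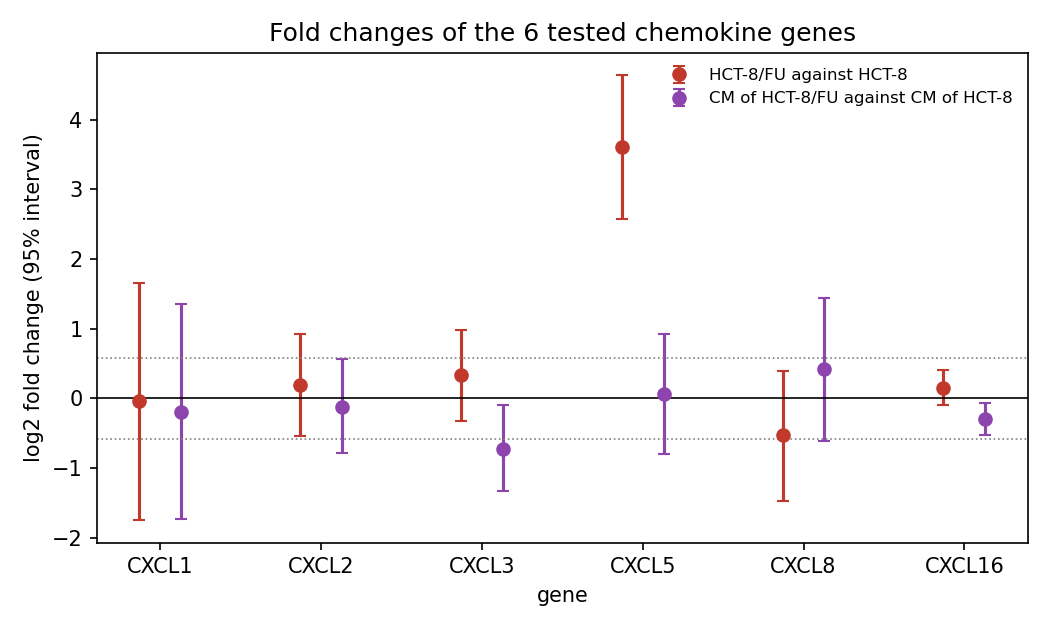
Log2 fold change with its 95% interval (vertical axis) of the 6 chemokine genes that passed the filter, in HCT-8/FU against HCT-8 (no test, since this contrast chose the genes) and in the CM comparison. Dotted lines mark the threshold of 0.58 in each direction. CXCL5 at 3.61 stands above the others in the first comparison and is at 0.06 in the second.

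The receptors of these ligands were scarce. CXCR1 had 0 counts in every library, and CXCR2 had 3 counts in HCT-8 replicate 2, 1 in HCT-8/FU replicate 1 and 0 elsewhere. CCR6 had 0 to 2 counts per library. CXCR6, the receptor of CXCL16, had 0 to 31 counts per library, at most 1.18 CPM, and log2 fold changes of -0.04 (SE 0.85) in HCT-8/FU against HCT-8 and 0.62 (SE 0.77) in the CM comparison. The adjusted p of CXCR6 in the latter was 0.638 in edgeR.

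Among 38 other chemokine ligands, 15 had 0 counts in every library and 7 passed the filter. CX3CL1, which like CXCL16 is a membrane-bound ligand released by ADAM10 and ADAM17, was the 1 called in HCT-8/FU against HCT-8, where 13.2% of all genes were called higher and 8.12% lower. It was at 74.8 ± 4.75 CPM in HCT-8 and at 37.8 ± 1.47 CPM in HCT-8/FU (SD, n = 2), a log2 fold change of -0.98 (SE 0.10). None of the 7 was called by edgeR in the CM comparison, where 7.97% of all genes were called higher and 1.28% lower, and none had an unadjusted p under 0.05. Of 19 other chemokine receptors, 8 were tested and 3 were called lower in HCT-8/FU. These were the scavenging receptor ACKR4 (-0.85, SE 0.29), the chemerin-binding CCRL2 (95% interval -1.73 to -0.27) and CXCR5 (-0.82, SE 0.12), on the log2 fold change scale. In the CM comparison edgeR called 0 of the 8, and 2 (CCR3 and CXCR5, named after their values were seen) had an unadjusted p under 0.05. The CXCR5 value is uncertain, since 91.1% of its exonic bases lie in BCL9L.

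ADAM10 and ADAM17, the proteases that release CXCL16, moved apart in HCT-8/FU against HCT-8. ADAM10 was higher by a log2 fold change of 1.22 (SE 0.10) and ADAM17 lower at -0.88 (SE 0.08). In the CM comparison ADAM10 rose by 0.99 (SE 0.10, edgeR adjusted p 4.56e-06), and ADAM17 was not called. After correction for GC content and length ADAM10 was no longer called in either comparison (0.52 and 0.27), while ADAM17 was at -1.35 in HCT-8/FU against HCT-8.

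The NF-kappaB list held 32 genes of the pathway that induces these chemokines, all of them tested. In HCT-8/FU against HCT-8, 5 were called higher and 5 lower, with a median log2 fold change of 0.15, where 13.2% of all genes were called higher and 8.12% lower. REL, an NF-kappaB subunit, was higher by 1.46 (SE 0.20) and BIRC3, a ubiquitin ligase of the TNF receptor complex, by 2.00 (SE 0.42). The precursor subunit NFKB2 was lower at -1.13 (SE 0.10) and the inhibitor NFKBIB at -1.22 (SE 0.12). In the CM comparison, 5 were called higher and 0 lower, with a median of -0.02, beside 7.97% and 1.28% of all genes. REL rose by 2.31 (SE 0.23, edgeR adjusted p 4.94e-06) and BIRC3 by 1.26 (SE 0.40, adjusted p 0.0385). Their relation to the chemokine levels was not tested.

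These counts changed with the correction for GC content and length. With it, 3 were called higher and 3 lower in HCT-8/FU against HCT-8, and 1 higher and 1 lower in the CM comparison. REL kept its call in the CM comparison at 1.62, and BIRC3 lost it at 0.61 with an adjusted p of 0.404 in edgeR. Of the exonic bases of REL, 33.3% overlap ENSG00000267520. Over all genes the same correction changed the split of calls from 2677 higher and 1648 lower to 1444 and 1600 in HCT-8/FU against HCT-8, and from 1619 and 259 to 526 and 428 in the CM comparison. When TMM took CM of HCT-8 replicate 2 as its reference, the split in HCT-8/FU against HCT-8 was 3166 and 1192.

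Cytokines and cytokine receptors that induce these chemokines formed a list of 21 genes, of which 14 were tested. In HCT-8/FU against HCT-8, 2 were called higher and 2 lower, and in the CM comparison 3 were called higher and 0 lower. The shares over all genes were 13.2% and 8.12% in the former and 7.97% and 1.28% in the latter. OSMR, the oncostatin M receptor, was higher by 1.50 (SE 0.44) in HCT-8/FU and rose by 2.05 (SE 0.48, edgeR adjusted p 0.00727) in CM of HCT-8/FU. Its partner IL6ST was higher by 1.25 (SE 0.11) and rose by 1.55 (SE 0.12, adjusted p 6.98e-07) in the same comparisons. IL1R1, the interleukin-1 receptor, rose by 0.76 (SE 0.21, adjusted p 0.0209) in the CM comparison, and the TNF receptor TNFRSF1A was lower by -0.82 (SE 0.08) in HCT-8/FU. With the GC and length correction OSMR and IL6ST kept their calls in the CM comparison, at 1.93 and 0.82, and IL1R1 lost its call at 0.65. In HCT-8/FU against HCT-8, OSMR kept its call at 1.34 and IL6ST lost it at 0.53. The list then had 1 gene called higher and 4 lower, beside 1444 and 1600 of all 19857 genes tested with the correction.

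Of 10 genes that govern the decay or stability of AU-rich chemokine transcripts, 2 were called higher and 2 lower in HCT-8/FU against HCT-8, beside 13.2% and 8.12% of all genes. ZFP36, or tristetraprolin, which promotes decay, was lower at -1.32 (SE 0.13) and its relative ZFP36L1 at -0.60 (SE 0.09). The roquins RC3H1 and RC3H2, which also promote decay, were higher by 1.49 (SE 0.12) and 1.05 (SE 0.10). In the CM comparison both roquins rose, RC3H1 by 0.77 (SE 0.12, edgeR adjusted p 2.08e-04) and RC3H2 by 1.18 (SE 0.10, adjusted p 1.89e-06). These were the 2 genes of the list called higher there, and 0 were called lower, beside 7.97% and 1.28% of all genes. With the GC and length correction RC3H1 was called in HCT-8/FU (0.89) and not in the CM comparison (0.17), and the reverse held for RC3H2 (0.45 and 0.59). ZFP36L1 lost its call in HCT-8/FU at -0.48. The CM comparison then had 1 gene of the list called higher and 1 lower, beside 526 and 428 of all 19857 genes tested with the correction.

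CXCL5 was chosen for its rise in HCT-8/FU, so smaller fold changes in the genes around it are expected from that choice and are only described. Within 1 Mb of the CXCL5 start, 12 other protein-coding genes passed the filter, and 4 of these are the chemokines described above. AREG, an epidermal growth factor receptor ligand 446 kb away, was lower in HCT-8/FU with a log2 fold change of -1.79 (SE 0.09). EREG and BTC, ligands of the same receptor, were at -0.10 (SE 0.14) and 0.17 (SE 0.28). RASSF6, on the other side of CXCL5, was at 0.71 (SE 0.20) in HCT-8/FU against HCT-8 and rose by 0.89 (SE 0.20, edgeR adjusted p 0.00567) in the CM comparison, and it lost both calls after the GC and length correction (0.15 and 0.37). The other 4, COX18, ANKRD17, MTHFD2L and PARM1, had log2 fold changes of 0.51, 0.56, 0.17 and 0.27 in HCT-8/FU.

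**Figure D5:**
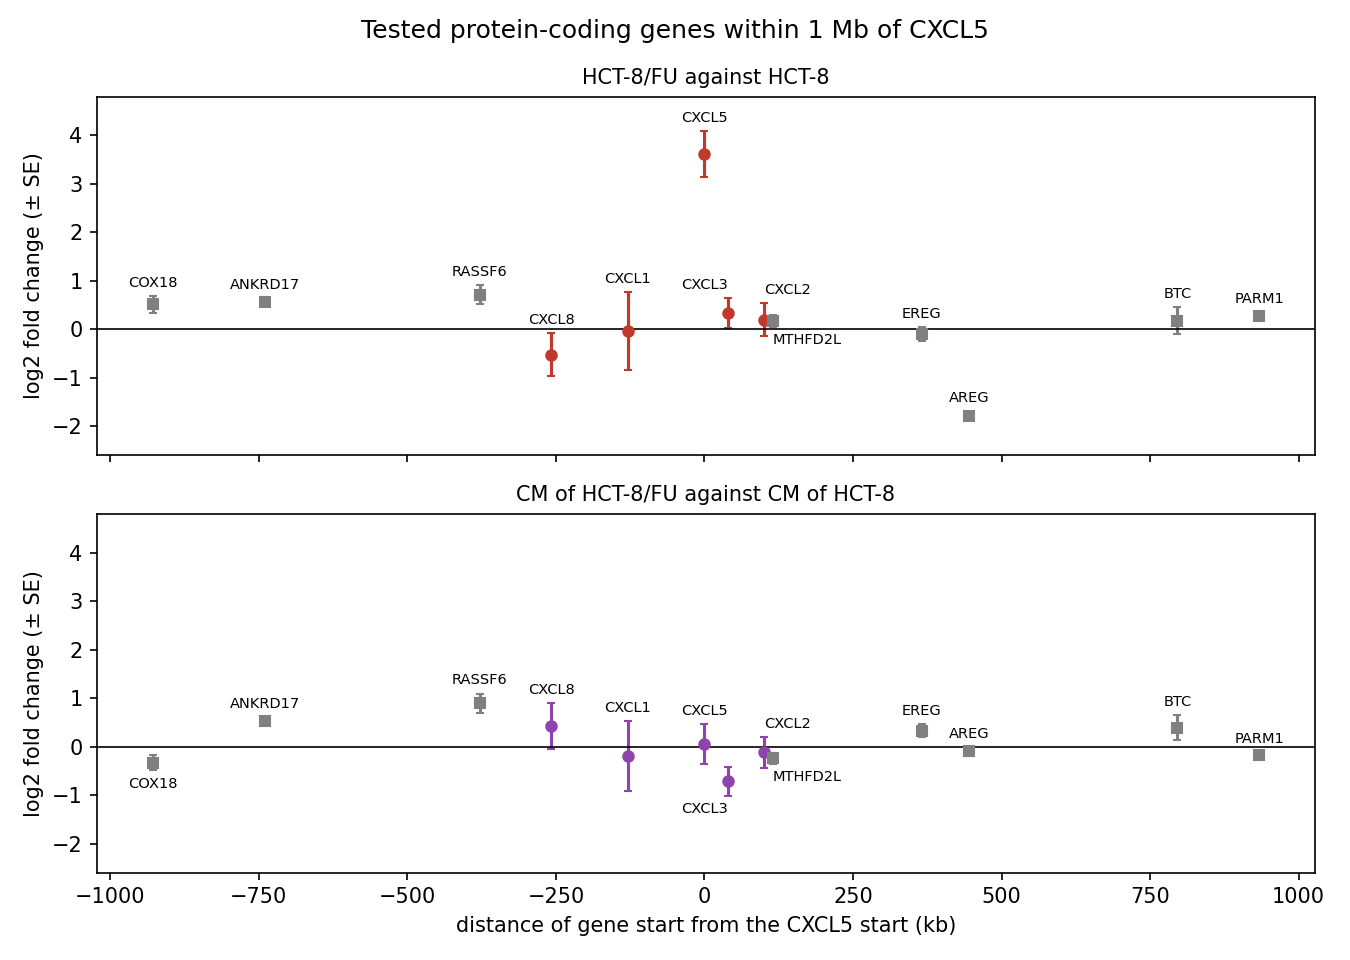
Log2 fold change ± SE (vertical axis) of the tested protein-coding genes within 1 Mb of CXCL5 against the distance of their start from the CXCL5 start in kb, with chemokines as circles and other genes as squares, for HCT-8/FU against HCT-8 above and the CM comparison below. CXCL5 stands at 3.61 in the upper panel, where the nearest tested chemokine on either side, CXCL1 and CXCL3, is at -0.04 and 0.33, respectively. CXCL5 was chosen for its rise in the comparison of that panel.

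The 5 protein-coding genes whose log2 CPM followed that of CXCL5 most closely over the 8 libraries were GTSE1, CSTF3, KLHL23, HMGB2 and KRT20, with Pearson coefficients of 0.991, 0.987, 0.985, 0.984 and 0.98. They were picked as the highest among all tested genes, from 8 libraries that share their depth and GC differences, so the coefficients are a description. GTSE1, a regulator of p53 in the G2 phase, was at 24.8 ± 0.627 CPM in HCT-8 and 44.4 ± 8.29 CPM in HCT-8/FU, with 34.3 ± 1.12 and 33.7 ± 1.88 CPM in CM of HCT-8 and CM of HCT-8/FU (SD, n = 2). KRT20, a keratin of differentiated gut epithelium, was at 5.29 ± 0.709 and 14.5 ± 3.36 CPM in HCT-8 and HCT-8/FU, and at 8.43 ± 0.942 and 8.41 ± 0.846 CPM in the 2 CM groups. In all 5 genes, as in CXCL5, the means of both CM groups lay between those of HCT-8 and HCT-8/FU. This goes with how the genes were picked and is not a separate result.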

How the data were processed

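Messenger RNA of 8 libraries (4 groups, 2 replicates each) was sequenced by the authors as paired reads of 150 bases, aligned with HISAT2 to GRCh38, handled with SAMtools 1.18 and counted per gene with HTSeq 0.11.2 on Ensembl release 94. The deposited values used here are whole-number read counts per gene, not normalized. No source used here gives the strand setting. The labels name Ham's F12 as the culture medium and the study's methods an RPMI medium. The authors' DESeq2 tables, which hold fold changes and p-values, were not used. Between 29.7% and 40.8% of records per library were on genes, and the rest (not aligned, no feature, ambiguous, low quality or not unique) were left out of library sizes. Floors cover counting error only, and the 95% intervals of fold changes come from the fitted SE, which includes the spread between libraries.

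Counts were filtered with filterByExpr, normalized by TMM with HCT-8 replicate 2 as reference, and fitted in edgeR 4.0.16 (R 4.3.3) with the quasi-likelihood test on 4 group means. Genes were called at a Benjamini-Hochberg adjusted p of at most 0.05 and a log2 fold change of 0.58 or more in size, as in the study. Level correlations used a prior count of 2. The script was tested on simulated data. Gene positions and GC content came from GENCODE 44, which matched 56105 of the identifiers, with GC content for 19857 tested genes. Promoters came from RefSeq and were aligned globally (match 1, mismatch -1, gap -2). The chemokines and all lists were chosen with earlier results of these data known. Named genes were the 8 chemokines, 4 receptors, at most 4 called genes per list by size of change, the 5 genes most correlated with CXCL5 and the tested neighbours within 1 Mb. Same-numbered replicates did not deviate together (correlations of -0.0862 and -0.0279 in the 2 comparisons), so the numbers were not used as pairs. Alternatives were DESeq2 1.42.0 and its size factors, other filters, the groups compared only, a replicate block, a correction for GC content and length by splines with 5 degrees of freedom, a term for libraries with over 15% not aligned, FDR alone, and each library left out. Leaving out the 3 such libraries and another TMM reference were added after seeing the data.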

Additional observations from a re-analysis of the deposited data

How the results depend on the processing

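With 2 libraries per group, CXCL5 in HCT-8/FU against HCT-8 kept its direction in all 19 alternatives, between 2.65 (without HCT-8/FU replicate 2) and 4.33, and was 3.64 with a replicate block. Since this contrast chose the genes, the kept direction is a description and no test of the rise. The number of chemokines past the fold threshold there was 1 as reported and 2 with no filter on low counts, with DESeq2, with the replicate block, with the correction for GC content and length with or without the block, and with the 3 libraries of over 15% not aligned left out. It was 1 to 3 when single libraries were left out, the 3 being reached without HCT-8 replicate 2, where CXCL1 is set against a library with 0 counts. No chemokine was called between the CM groups in any of 20 alternatives. CXCL5 between the CM groups changed sign to -0.46 with the correction for GC content and length, to -0.46 with that correction and the replicate block, and ranged from -0.31 to 0.37 when single libraries were left out. The block alone gave 0.07, and the term for libraries with over 15% not aligned gave 0.57. CXCL8 changed to -0.35 with the correction and to -0.44 with the block added, and ranged from -0.02 to 0.73 without single libraries. CXCL1 ranged from -0.57 to 0.48 without single libraries, with 0.14 without CM of HCT-8/FU replicate 2. The NF-kappaB genes called fell from 10 to 6 in HCT-8/FU and from 5 to 2 between the CM groups with the GC and length correction, with or without the block, and were 19 and 12 by FDR alone. They ranged from 8 to 11 and from 4 to 6 when single libraries were left out. Leaving out a library leaves an arm with 1 sample, which is assumed to vary like the other groups. The cause of these changes was not tested. CXCL5 means moved by less than 1 SD with DESeq2 size factors. Depth limits what can be said of CXCL6, CCL20 and CXCL1, at 0, 14 and 109 counts in all.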
